A study of Mus musculus with 9 samples.

Results

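The Hox genes of mouse white adipose tissue were followed on 9 Clariom S arrays, 1 array per sample. Members were all rows of the deposited table whose platform symbol is Hoxa, Hoxb, Hoxc or Hoxd followed by a number, which gave 33 genes of the 19505 genes with a named row, each with 1 row. RefSeq (assembly GRCm38.p6) lists 39 Hox genes. The other 6 were not analysed here.

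The 3 groups held 3 arrays each. In the first, male C57BL/6JHamSlc-ob/ob mice were gavaged for 6 weeks with a rice bean (Vigna umbellata) extract, VE, at 100 mg/kg. In the second, male C57BL/6JHamSlc-ob/ob mice, which lack functional leptin and become obese, received vehicle. In the third, male C57BL/6JHamSlc-+/+ mice, the non-obese wild type, received vehicle. All mice were 6 weeks old when obtained, had 1 week of acclimatization, ate standard chow and were sampled after 42 days. The labels give the tissue as white adipose tissue and do not name the depot. In comparisons with wild type, genotype and the site sampled therefore cannot be told apart. The ob/ob mutation is present in every tissue of the animal, not in fat alone.

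Hox genes encode homeodomain transcription factors that give cells their position along the head-to-tail axis of the embryo. They lie in 4 clusters, and the order of genes along a cluster follows the order in which they are used along the axis, with paralog group 1 at the anterior end and group 13 at the posterior end. The proteins bind DNA together with homeodomain cofactors of the Pbx and Meis families, Polycomb proteins keep the clusters silent, and Trithorax proteins keep them active. Adult fibroblasts and fat cell progenitors retain a Hox pattern of the body site they come from, and fat depots differ in it. The same genes are active in other tissues of the trunk, including the epithelium and smooth muscle of the urogenital tract.

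The members covered 8 of 11 genes of the A cluster (chromosome 6, 52155367 to 52260880), 9 of 10 of the B cluster (chromosome 11, 96194316 to 96368254), 9 of 9 of the C cluster (chromosome 15, 102921131 to 103036856) and 7 of 9 of the D cluster (chromosome 2, 74668225 to 74765142). By paralog group, 8 were anterior (groups 1 to 4), 10 central (5 to 8) and 15 posterior (9 to 13). These spans come from RefSeq, since the build behind the array values is not given in the sources used here.

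The upstream sequences of 3 of the genes that the results turn on are shown first, because they are the only ones of the 8 genes called lower below that have an entry in the RefSeq promoter table used here. In all, 17 of the 33 members had an entry, with 19 windows of 250 bases. Each is the 250 bases before a transcript start in that table, on the plus strand of GRCm38.p6: chr11:96281655-96281904 for Hoxb8, chr2:74704365-74704614 for Hoxd8 and chr2:74697513-74697762 for Hoxd9. The Hoxb8 window lies inside the RefSeq span of the gene (96279401 to 96285325), while the Hoxd8 and Hoxd9 windows end just before theirs. Capitals mark a match to the Pbx-Hox dimer motif TGATNNAT on either strand.
Hoxb8: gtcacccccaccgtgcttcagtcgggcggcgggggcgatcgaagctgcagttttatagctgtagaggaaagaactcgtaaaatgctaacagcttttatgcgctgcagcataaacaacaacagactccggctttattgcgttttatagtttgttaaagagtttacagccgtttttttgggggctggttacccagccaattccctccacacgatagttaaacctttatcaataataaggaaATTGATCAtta
Hoxd8: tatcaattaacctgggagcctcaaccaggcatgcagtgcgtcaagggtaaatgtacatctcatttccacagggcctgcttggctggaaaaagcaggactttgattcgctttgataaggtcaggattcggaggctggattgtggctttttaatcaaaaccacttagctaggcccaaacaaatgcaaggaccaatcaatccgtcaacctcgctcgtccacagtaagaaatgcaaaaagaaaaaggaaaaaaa
Hoxd9: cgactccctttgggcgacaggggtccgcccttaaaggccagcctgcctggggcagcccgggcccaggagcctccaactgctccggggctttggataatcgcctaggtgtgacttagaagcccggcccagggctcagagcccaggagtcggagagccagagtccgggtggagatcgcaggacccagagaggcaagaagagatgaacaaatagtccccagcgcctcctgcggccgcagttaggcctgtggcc
The Hoxb8 window held 1 match, read on the minus strand, and the Hoxd8 and Hoxd9 windows held 0. Of 32851 windows of that length in the table, 7.68% held the motif, against 4 of the 19 Hox windows. The homeodomain core TAATTA, searched on both strands, lay in 0 of the 3 windows shown, in 2 of the 19 Hox windows and in 4.84% of all windows. The windows shown were 44.4% (Hoxb8), 44.4% (Hoxd8) and 65.2% (Hoxd9) G and C. A match is a description of the letters and not of binding.

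Values are log2 signals, normalised between arrays by the submitters. A difference of 1 is a doubling, and a value of 1 probe set cannot be set against that of another. A gene was called where limma gave a Benjamini-Hochberg adjusted p under 0.05 over all 19572 named clusters. The smallest p of an exact permutation test of 3 arrays against 3 is 0.1, and the calls therefore depend on the spread that limma pools over genes. The array medians lay between 6.11 and 6.26. Across genes (not independent replicates), arrays of a group correlated with Pearson's r of 0.982 to 0.988 for VE, 0.980 to 0.987 for ob/ob vehicle and 0.933 to 0.956 for wild type. All 10 adipocyte markers read above the array medians on every array, with adiponectin (Adipoq) at 17.93 or more. Their level was not alike on all arrays. The median of the 10 was 14.99, 14.54 and 16.885 on wild type arrays 1, 2 and 3, and 17.085 to 17.44 on the ob/ob arrays.

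Vehicle-treated ob/ob mice were compared with wild type mice to ask how the fat of obese, leptin-deficient animals differs. A block of B cluster genes and their neighbours in paralog number in the D cluster were lower in ob/ob fat. Of 33 Hox genes, 8 were called lower (24.24%), against 5.05% of all clusters, and 0 were called higher, against 9.02%. The 8 were Hoxb3, Hoxb5, Hoxb6, Hoxb7, Hoxb8, Hoxb9, Hoxd8 and Hoxd9, with folds from 2.13 lower (Hoxb3) to 9.69 lower (Hoxb6). In whole tissue, fewer cells of a type and less RNA per cell cannot be told apart.

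Hoxb6, a central member, read 4.06, 4.52 and 4.23 with VE, 4.73, 3.86 and 4.25 in ob/ob vehicle and 7.76, 8.76 and 6.15 in wild type. All 6 ob/ob arrays lay below all 3 wild type arrays. The difference of ob/ob vehicle from wild type was −3.28 ± 0.55 (log2, SE, n = 3; limma adjusted p = 0.0034). Hoxb7, which lies next to it and is also active in the ureteric bud of the kidney, read 7.59, 7.43 and 8.28 with VE, 8.07, 8.0 and 7.53 in ob/ob vehicle and 10.63, 10.63 and 9.16 in wild type. Its groups did not overlap, and wild type array 3 was the lowest of the wild type arrays for both genes. The difference for Hoxb7 was −2.27 ± 0.41 (limma adjusted p = 0.0051).

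Hoxb8, used in blood progenitors and in a lineage of microglia, read 3.66, 4.01 and 4.18 with VE, 3.92, 4.13 and 4.03 in ob/ob vehicle and 6.93, 7.45 and 4.90 in wild type. Wild type array 3 stood closer to the ob/ob arrays than to the other wild type arrays. The difference was −2.40 ± 0.54 (limma adjusted p = 0.0148), and without ob/ob vehicle array 1 the adjusted p was 0.0506. Hoxb9, a posterior member with roles in the thoracic skeleton and the mammary gland, read 2.79, 2.63 and 2.48 with VE, 2.73, 2.62 and 2.78 in ob/ob vehicle and 4.83, 5.26 and 4.48 in wild type. The 6 ob/ob arrays were within a narrow band and all below wild type. The difference was −2.15 ± 0.24 (limma adjusted p = 0.0004). Its mean stood at percentile 6.75 of all clusters, and no detection call was used here, so its height over background is not known.

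Hoxd8 read 7.29, 7.44 and 7.47 with VE, 8.18, 7.58 and 7.39 in ob/ob vehicle and 10.30, 10.90 and 9.19 in wild type. The groups were apart, again with wild type array 3 lowest of its group. The difference was −2.41 ± 0.40 (limma adjusted p = 0.0032). Hoxd9, which acts with its paralogs in the lumbar and sacral region, read 3.74, 4.56 and 3.61 with VE, 3.96, 3.55 and 3.81 in ob/ob vehicle and 5.43, 5.31 and 4.68 in wild type. All ob/ob arrays were below wild type, though VE array 2 came close to wild type array 3. The difference was −1.37 ± 0.31 (limma adjusted p = 0.0164), with an adjusted p of 0.0714 without ob/ob vehicle array 2 and 0.0504 without wild type array 1.

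Hoxb3, an anterior member known for its part in hindbrain and thymus development, read 6.09, 7.01 and 6.23 with VE, 6.77, 6.45 and 6.46 in ob/ob vehicle and 7.54, 7.89 and 7.53 in wild type. Hoxb5, with roles in the lung and the enteric nervous system, read 5.06, 5.53 and 5.11 with VE, 6.04, 5.38 and 4.76 in ob/ob vehicle and 6.91, 6.69 and 6.90 in wild type. For these genes the 3 wild type arrays lay close together, and no ob/ob array reached them. Hoxb3 differed by −1.09 ± 0.28 (limma adjusted p = 0.0273) and missed the threshold without ob/ob vehicle array 2 (0.0971), ob/ob vehicle array 3 (0.0849) or wild type array 2 (0.0722). Hoxb5 differed by −1.44 ± 0.32 (limma adjusted p = 0.0138), with an adjusted p of 0.0518 without ob/ob vehicle array 2. Without ob/ob vehicle array 2, 5 Hox genes were called lower. Hoxb6, Hoxb7, Hoxb9 and Hoxd8 were called with any single array left out.

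**Figure D1:**
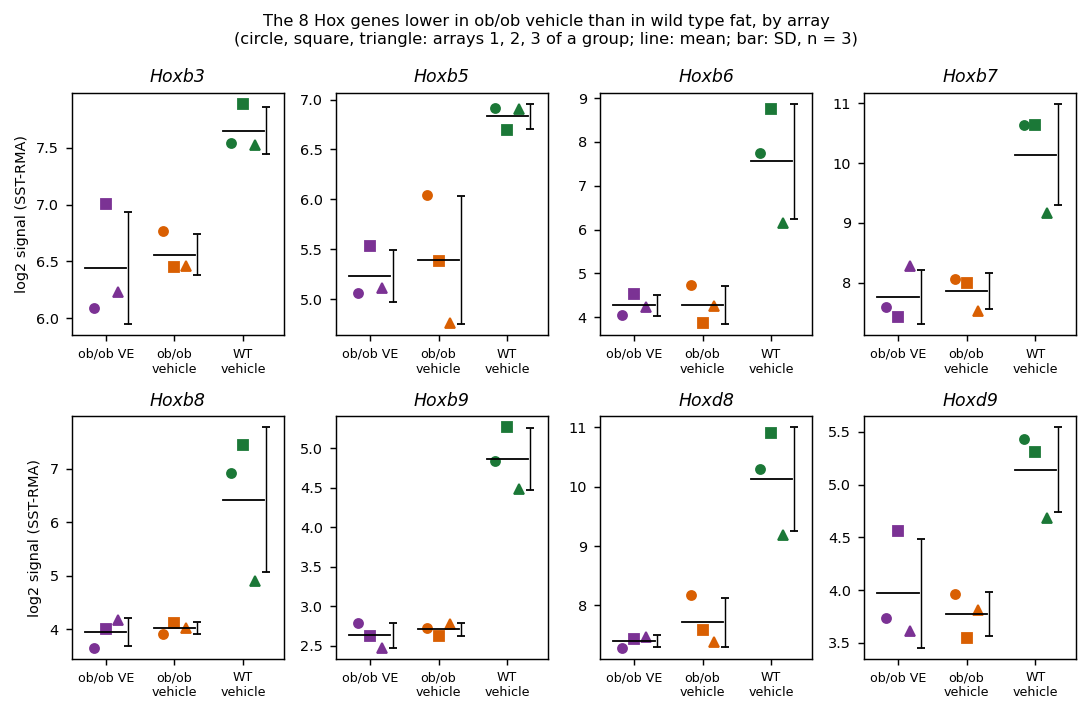
Log2 signal (SST-RMA) of the 8 Hox genes that limma called lower in fat of ob/ob vehicle mice, by array. Each panel shows VE, ob/ob vehicle and wild type from left to right, with circle, square and triangle for arrays 1, 2 and 3, a line for the mean and a bar for the SD (n = 3). All ob/ob arrays lie below all wild type arrays in each panel, and the triangle of wild type is its lowest point for Hoxb3, Hoxb6, Hoxb7, Hoxb8, Hoxb9, Hoxd8 and Hoxd9.

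The calls were unevenly spread over the clusters. Of the B cluster, 6 of 9 members were lower, and the differences of all 9 had a median of −1.44. The D cluster had 2 of 7 lower and a median of −1.01. The A cluster had 0 of 8 called and a median of −0.54, and the C cluster 0 of 9 called and a median of −0.24. By axis region, 5 of 10 central genes were lower, against 1 of 8 anterior and 2 of 15 posterior genes. The medians were −1.21 for central, −0.49 for anterior and −0.52 for posterior genes, beside −0.0367 for all clusters. No test was made between clusters or regions, whose genes share arrays and neighbouring positions. Over all members the median was −0.56, and 30 of 33 differences were below 0 (90.91%), against 52.5% of all clusters. In 12 members (36.36%) all ob/ob vehicle arrays lay below all wild type arrays, against 13.1% of clusters, and in 0 above them, against 15.7%.

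**Figure D2:**
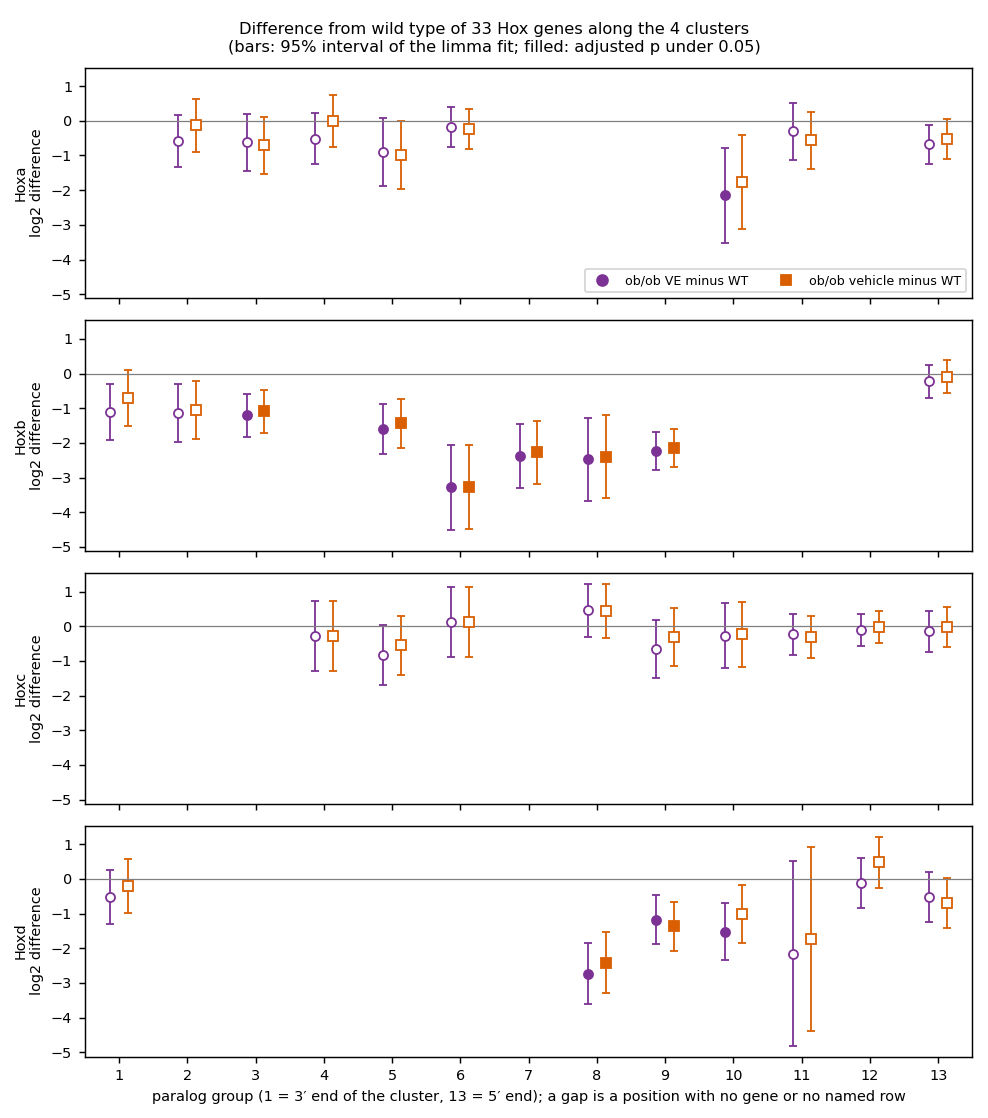
Log2 difference from wild type for VE and ob/ob vehicle, plotted by paralog group (1 anterior to 13 posterior) in each of the 4 clusters. Bars are 95% intervals of the limma fit and filled points are called genes: Hoxb3, Hoxb5 to Hoxb9, Hoxd8 and Hoxd9 for both groups, with Hoxa10 and Hoxd10 added for VE. No point of the C cluster is filled.

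The remaining B cluster genes missed the threshold. Hoxb2, a hindbrain gene, read 6.65, 6.89 and 6.72 with VE, 6.87, 7.20 and 6.44 in ob/ob vehicle and 8.74, 7.18 and 7.77 in wild type, a difference of −1.06 ± 0.37 (limma adjusted p = 0.0911). Hoxb1 read 3.39, 3.11 and 3.09 with VE, 3.81, 3.72 and 3.29 in ob/ob vehicle and 5.07, 3.53 and 4.33 in wild type. In both, wild type array 2 overlapped the ob/ob vehicle arrays, and both were called without it. Hoxb13, a prostate gene, differed by −0.10 ± 0.21.

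Among posterior genes, Hoxd11, Hoxa10, Hoxd10 and Hoxa11 each read highest on wild type array 2. Within wild type, Hoxb9, Hoxb13, Hoxc11, Hoxc12, Hoxc13, Hoxd12 and Hoxd13 were also highest on that array, while Hoxa13, Hoxc9, Hoxc10 and Hoxd9 were not. Hoxd11, needed with Hoxa11 for the forearm and the kidney, read 2.39, 2.82 and 3.15 with VE, 3.19, 3.14 and 3.31 in ob/ob vehicle and 3.22, 8.65 and 2.96 in wild type. Apart from wild type array 2, every value lay between 2.39 and 3.31. The difference of −1.73 ± 1.20 (limma adjusted p = 0.393) was 0.12 without that array. Hoxa10, known in the uterus and the vas deferens, read 4.30, 4.35 and 3.89 with VE, 4.82, 3.92 and 4.94 in ob/ob vehicle and 5.35, 8.02 and 5.63 in wild type. Its groups did not overlap, but the difference of −1.77 ± 0.61 missed the threshold (limma adjusted p = 0.0843) and was −0.93 without wild type array 2. It was called without wild type array 1 or without wild type array 3. Hoxd10 read 4.43, 4.07 and 3.63 with VE, 4.69, 4.29 and 4.66 in ob/ob vehicle and 5.61, 6.28 and 4.79 in wild type, and differed by −1.01 ± 0.37 (limma adjusted p = 0.102). It was called without wild type array 3. Hoxa11 read 4.49 on wild type array 2, against 2.77 to 3.30 on the 6 ob/ob arrays.

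The C cluster includes genes studied in fat, and none of its 9 members was called. Hoxc8, known in mice as a repressor of brown fat genes, read 13.57, 12.80 and 13.72 with VE, 13.45, 13.31 and 13.25 in ob/ob vehicle and 12.33, 12.82 and 13.55 in wild type. Wild type array 3 fell among the ob/ob arrays. The difference was 0.44 ± 0.35 (limma adjusted p = 0.465). Hoxc6 read 9.98, 10.14 and 11.17 with VE, 10.75, 10.22 and 10.33 in ob/ob vehicle and 9.53, 10.10 and 11.27 in wild type. The groups overlapped over most of their range, and the difference was 0.13 ± 0.45. Hoxc9 and Hoxc10, the second a gene of subcutaneous fat, differed by −0.32 and −0.24, and the whole cluster lay between −0.55 (Hoxc5) and 0.44 (Hoxc8). Hoxd12 had the highest difference of all members, 0.48, and did not pass (limma adjusted p = 0.387).

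Of the other C and D genes, Hoxc11, Hoxc12 and Hoxc13, used in the hindlimb and hair, and Hoxc4 differed by −0.30, −0.03, −0.01 and −0.28, and Hoxd1 and Hoxd13 by −0.20 and −0.69. None of them passed.

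In the anterior and central A cluster, Hoxa5, whose level is known to differ between fat depots, read 5.89, 5.91 and 6.26 with VE, 6.36, 5.10 and 6.34 in ob/ob vehicle and 6.37, 6.56 and 7.83 in wild type. Here wild type array 3 was the highest. The difference was −0.99 ± 0.44 (limma adjusted p = 0.174), and it was −0.57 without ob/ob vehicle array 2 and −0.53 without wild type array 3. Hoxa3, an anterior gene of the pharyngeal region, read 6.40, 6.72 and 6.53 with VE, 6.59, 6.66 and 6.14 in ob/ob vehicle and 7.10, 6.39 and 8.02 in wild type. It too was highest on wild type array 3, and it did not pass. Hoxa2 differed by −0.13 ± 0.34, Hoxa6 by −0.23 ± 0.26, and the digit and urogenital gene Hoxa13 by −0.52 ± 0.25. Hoxa4 had the same mean in both groups within 0.01.

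**Figure D3:**
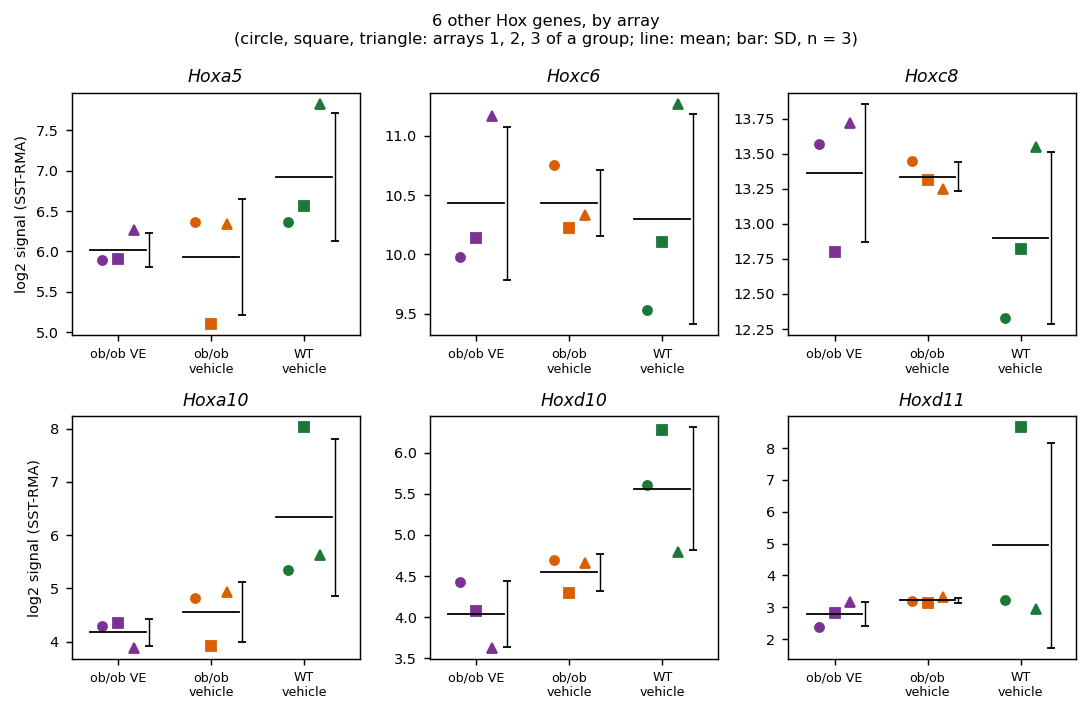
Log2 signal (SST-RMA) of Hoxa5, Hoxc6, Hoxc8, Hoxa10, Hoxd10 and Hoxd11, which were not called between ob/ob vehicle and wild type, by array. Groups run from VE through ob/ob vehicle to wild type, with a line for the mean and a bar for the SD (n = 3). Wild type array 2 (square) stands high for Hoxa10 and Hoxd11, and wild type array 3 (triangle) for Hoxa5 and Hoxc6.

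Hox genes varied widely among wild type arrays, with 22 of 33 above the median SD of all genes there. The median SD of the 33 genes was 0.25 with VE, 0.28 in ob/ob vehicle and 0.70 in wild type, beside 0.26, 0.30 and 0.41 over all genes in the same groups. Wild type array 3 was the lowest of its group for 16 Hox genes (48.48%), between the others for 8 and the highest for 9 (27.27%). Over all genes these shares were 31.3%, 32.2% and 36.5%. The 9 genes highest on that array were Hoxa2 to Hoxa6 in the A cluster and Hoxc4, Hoxc5, Hoxc6 and Hoxc8 in the C cluster, none of them posterior. The 16 lowest included all 7 D genes and 5 B genes. Wild type array 3 thus read high for anterior and central A and C genes and low for the D genes.

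**Figure D4:**
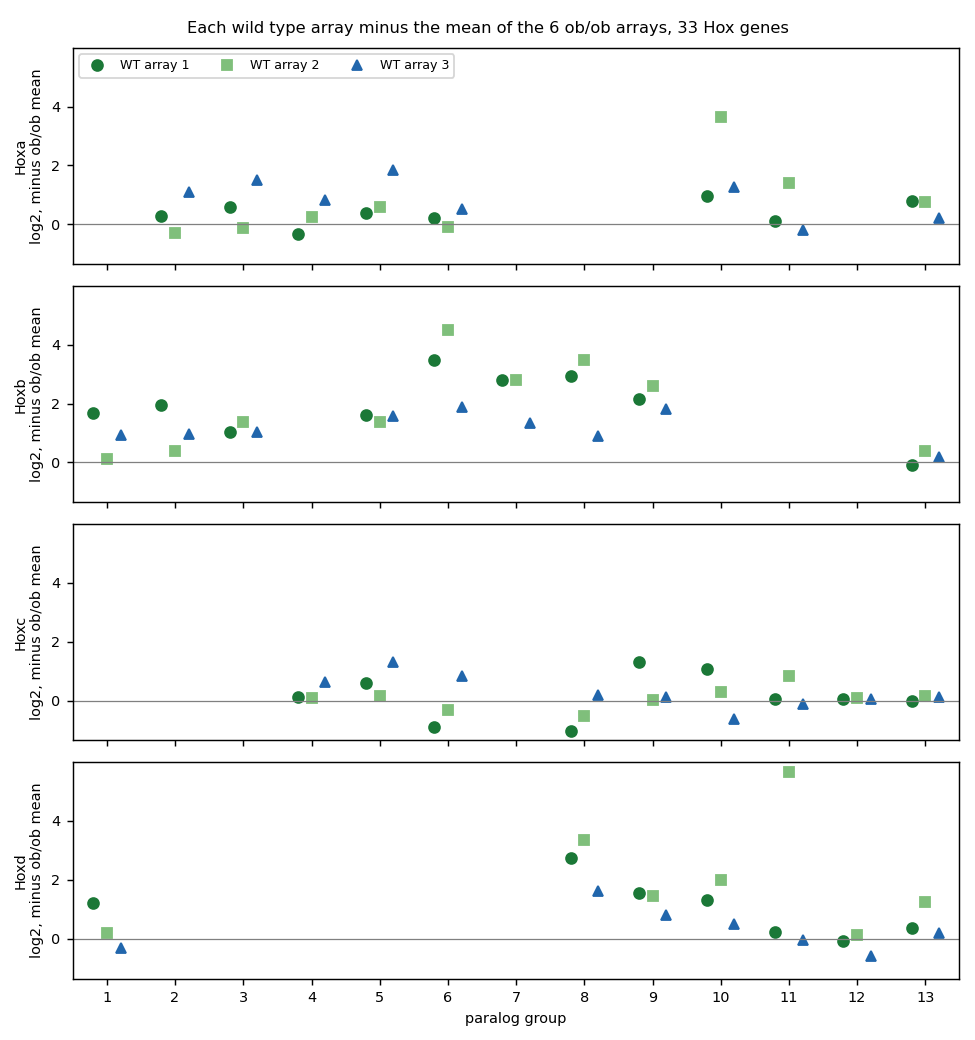
Log2 signal of each wild type array minus the mean of the 6 ob/ob arrays for the 33 Hox genes, by cluster and paralog group, so that positive values are higher in wild type. Array 3 lies above the other 2 arrays at Hoxa2 to Hoxa6 and at Hoxc4, Hoxc5, Hoxc6 and Hoxc8, and below both at all 7 D genes, while array 2 stands alone at Hoxd11 and Hoxa10.

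Markers of some other cell types also differed between ob/ob and wild type fat, not all in the same direction, and their part in the result was not tested. Of 20 epithelium markers, 15 were called lower in ob/ob vehicle against wild type, and 0 higher. Over all clusters 5.05% were called lower and 9.02% higher, and each count in this paragraph stands beside these shares. Nothing is read from the small counts of the smooth muscle, epididymis and stromal progenitor lists. The summed level of the epithelium markers on the log2 scale was 9.65 to 10.25 with VE and 9.81 to 9.83 in ob/ob vehicle. On wild type arrays 1, 2 and 3 it was 15.17, 16.30 and 13.52. The lowest of these wild type sums was on array 3. Hoxb6, Hoxb7, Hoxb8, Hoxb9, Hoxd8 and Hoxd9 were also lowest there within wild type. Hoxb3 was nearly equal on wild type arrays 1 and 3 (7.54 and 7.53), and Hoxb5 was lowest on wild type array 2 (6.69). Of 9 smooth muscle markers, 2 were lower, and the sums were 14.70 to 15.28 with VE, 15.06 to 15.72 in ob/ob vehicle and 16.43, 19.92 and 13.54 in wild type. Of 15 epididymis markers, 0 were called in this comparison, and the sums were 7.95 to 8.20 with VE, 8.17 to 9.51 in ob/ob vehicle and 8.84, 17.13 and 9.56 in wild type. The high sum was on wild type array 2, where Hoxd11 and Hoxa10 were high. The sperm-maturation gene Adam7 read 17.10 there and made up most of that sum. Smooth muscle and skeletal muscle markers also had their highest sums on that array. The skeletal muscle sums were 9.89 to 9.98 with VE, 9.505 to 9.69 in ob/ob vehicle and 10.28, 14.34 and 8.99 in wild type. Macrophage markers, 11 of 11, were higher in ob/ob vehicle, with sums of 19.45 to 19.93 with VE, 19.34 to 20.14 in ob/ob vehicle and 12.29 to 14.08 in wild type. Stromal progenitor markers had 1 of 8 higher and 0 lower, and their sums overlapped, at 17.28 to 18.34 with VE, 16.81 to 18.06 in ob/ob vehicle and 16.57 to 18.13 in wild type.

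The comparison was repeated without wild type arrays 1 and 2, which hold most of the epithelial signal. A fit with 1 wild type array assumes that wild type varies like the ob/ob groups, which it did not for Hox genes (median SD 0.70 against 0.25 and 0.28), so only sizes are given. Against wild type array 3 alone, ob/ob vehicle differed by −1.87 for Hoxb6, −1.77 for Hoxb9, −1.51 for Hoxb5, −1.47 for Hoxd8, −1.29 for Hoxb7, −0.97 for Hoxb3, −0.91 for Hoxd9 and −0.87 for Hoxb8. Each of the 8 stayed below 0, which was fixed in advance, because all their ob/ob arrays lay below all wild type arrays. Array 3 was the lowest wild type array for all of them but Hoxb5, so smaller differences were fixed too. Hoxb6, Hoxb7, Hoxb8, Hoxd8 and Hoxd9 shrank by more than 1.5 times. All 6 ob/ob arrays lay below wild type array 3 for 20 of the 33 genes (60.61%), against 26% of all clusters, including 9 of 9 B genes. They lay below all 3 wild type arrays for 11 (33.33%), against 9.81%.

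VE-treated ob/ob mice were next set against vehicle-treated ob/ob mice, whose labels differ from theirs only in the treatment given. No Hox gene was called in either direction by limma, against 0.0255% of all clusters called higher and 0% lower. At an unadjusted p under 0.05, 0 of 33 Hox genes passed, against 4.56% of clusters, and 0 were called under every alternative tried. Differences ran from −0.60 (Hoxd12) to 0.26 (Hoxa11) with a median of −0.10, beside −0.0233 for all clusters, and 25 of 33 lay below 0 (75.76%, against 53.3%). Only Hoxa2 had groups that did not overlap in the lower direction, 5.39, 5.39 and 5.08 with VE against 5.74, 5.43 and 6.02 in ob/ob vehicle, where 6.79% of clusters did so, and 0 members did so in the higher direction, against 5.77%. For the 8 genes lower in ob/ob fat, the 95% intervals of VE minus ob/ob vehicle together spanned −1.27 to 1.21. The narrowest of these was that of Hoxb9, −0.62 to 0.47, and changes inside a gene's own interval were not resolved with 3 arrays a group.

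**Figure D5:**
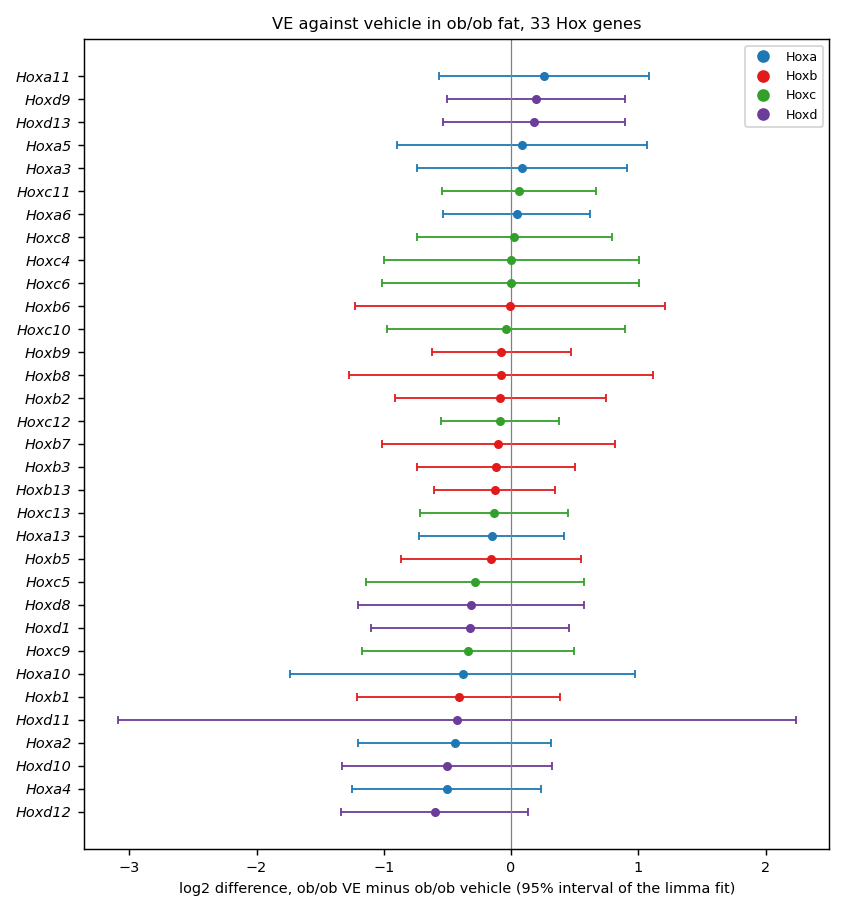
Log2 difference of VE minus vehicle in ob/ob fat for the 33 Hox genes, ordered by size and coloured by cluster, with the 95% interval of the limma fit. Every interval spans 0, and Hoxd11 has the widest, −3.09 to 2.24.

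VE-treated ob/ob mice were also compared with the same wild type arrays, so both comparisons with wild type share those values. Of 33 Hox genes, 10 were called lower (30.3%), against 7.58% of all clusters, and 0 higher, against 12.4%. Hoxb6 differed by −3.29 ± 0.55 (limma adjusted p = 0.0028), Hoxd8 by −2.73 ± 0.40 (0.0014), Hoxb8 by −2.48 ± 0.54 (0.0105), Hoxb7 by −2.37 ± 0.41 (0.0035) and Hoxb9 by −2.22 ± 0.24 (0.0003). Hoxb5 differed by −1.60 ± 0.32, Hoxb3 by −1.21 ± 0.28 and Hoxd9 by −1.17 ± 0.31. In 14 members (42.42%) all VE arrays lay below all wild type arrays, against 17.7% of clusters, and in 0 above them, against 19.5%. Differences were below 0 for 31 of 33 (93.94%), against 54.5%. The other called genes were Hoxa10, at −2.15 ± 0.61 (limma adjusted p = 0.0329), and Hoxd10, at −1.52 ± 0.37 (0.0178). Hoxa10 lost its call without any 1 VE array and was −1.31 without wild type array 2. Hoxb3 lost its call without VE array 1 or 3, Hoxd10 without VE array 2 or 3, and Hoxd9 without VE array 1 or 3 or wild type array 1 or 2. Hoxb1 (−1.11; 0.0536) and Hoxb2 (−1.14; 0.0562) missed the threshold and were called without wild type array 2. Against wild type array 3 alone, VE differed by −1.88 for Hoxb6, −1.79 for Hoxd8, −1.45 for Hoxa10, −1.39 for Hoxb7, −0.95 for Hoxb8, −0.75 for Hoxd10 and −0.71 for Hoxd9.

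The machinery that sets and reads Hox expression was covered by 4 lists, whose median differences of ob/ob vehicle from wild type were −0.21 for the cofactors, −0.23 for Polycomb, −0.38 for Trithorax and 0.15 for upstream inputs, beside −0.0367 for all clusters. Their counts stand beside 9.02% of all clusters called higher and 5.05% called lower, and nothing about the lists is read from counts this close to it. Of 8 Pbx, Meis and Pknox cofactors, 0 were called between ob/ob vehicle and wild type. Meis1, which binds DNA beside Hox proteins, read 8.14, 7.91 and 8.37 with VE, 7.85, 8.33 and 8.55 in ob/ob vehicle and 8.54, 11.64 and 10.42 in wild type. Wild type array 1 met the ob/ob range, and the difference was −1.96 (limma adjusted p = 0.0638) for ob/ob vehicle and −2.06 (0.0417, called) for VE. The first was called without wild type array 1 (−2.79; 0.00198), and the second lost its call without any 1 of the other 8 arrays. Of 15 Polycomb genes, 0 were called for ob/ob vehicle and 1, the methyltransferase Ezh1 (−0.79), was lower with VE against wild type. The Trithorax list of 9 measured genes also held demethylases and the histone methyltransferase Dot1l, which is in neither class. Of the 9, only Dot1l was called in ob/ob vehicle, and it was higher (1.47; limma adjusted p = 0.0116). With VE against wild type Dot1l was also higher and the demethylase Kdm6b lower (−1.05). Ezh1 and Kdm6b both lost their call without any 1 VE array, ob/ob vehicle array 2 or, in turn, each wild type array. Of 12 upstream inputs, the retinoic acid receptors Rara (1.22; 0.0270) and Rarb (1.55; 0.0039) were higher in ob/ob vehicle. Rara lost its call without any 1 ob/ob vehicle array or wild type array 2. Retinoic acid is a known inducer of anterior Hox genes in the embryo.

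Of 9 measured genes flanking the clusters, 1 was called, near the share over all clusters (9.02% higher and 5.05% lower). Mtx2, a mitochondrial import gene next to the D cluster, was higher in ob/ob vehicle by 1.54 (limma adjusted p = 0.0051), whereas Hoxd8 and Hoxd9 of that cluster were lower. With VE against wild type, Mtx2 (2.24) and another flanking gene, Lnpk (1.10), were higher, and the homeobox gene Evx2 (−0.84) was lower. Lnpk lost its call without any 1 VE array, ob/ob vehicle array 2 or wild type array 1, and Evx2 without VE array 1 or 3, any 1 ob/ob vehicle array, or wild type array 1 or 2. Of 16 other transcription factors that pattern fat depots, 1 was lower in ob/ob vehicle, near the 5.05% of all clusters. This was Nr2f2, at 10.51, 11.36 and 11.03 with VE and 11.59, 10.95 and 11.15 in ob/ob vehicle, against 13.10, 14.98 and 13.24 in wild type (−2.54; limma adjusted p = 0.0057). The groups were apart by more than 1 log2 unit. With VE against wild type Nr2f2 (−2.81) and Tcf21 (−1.51; limma adjusted p = 0.0211) were lower. Tcf21 just missed the threshold in ob/ob vehicle (−1.29; 0.0501). Of 10 urogenital transcription factors, Pax8 (−7.14), Pax2 (−5.89) and Emx2 (−4.22) were lower in ob/ob vehicle, beside 5.05% of all clusters. With VE against wild type Pax8, Pax2, Emx2 and Osr2 (−3.09; limma adjusted p = 0.0291) were lower, beside 7.58% of all clusters. That list's sums were 10.02 to 10.65 with VE, 9.38 to 10.91 in ob/ob vehicle and 13.21, 14.44 and 12.02 on wild type arrays 1, 2 and 3, with array 3 again the lowest. In VE against ob/ob vehicle, 0 genes of any list were called.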

How the data were processed

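White adipose RNA of 9 male mice in 3 groups of 3 was profiled on Clariom S arrays. The deposited values are log2 signals rounded to 2 decimals. They were normalised with SST-RMA, a signal space transformation followed by a multi-chip average, in Transcriptome Analysis Console (version 4.0.2 by the design text; the submitters' processing notes give 4). Their own calls used unadjusted p under 0.05 with at least a 1.1 fold, per the labels' design text. Their detection filters could not be applied, because detection calls were not used here. Precision is limited by the number of arrays, which have no read depth. Of 22206 clusters, 19572 with 1 symbol were tested.

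Groups follow the sample labels. limma 3.58.1 in R 4.3.3 was fitted to 3 group means over the 9 arrays, with the variance moderated across genes (4.02 prior degrees of freedom). Two-sided p-values were adjusted by Benjamini-Hochberg within each comparison. The p-values measure the spread between these mice, whose housing and extraction days are not given in the sources used here. Same-numbered arrays deviated together with correlations of −0.0635 to 0.181, so the numbers were not taken as pairs. The members, the lists and the fit without wild type arrays 1 and 2 were chosen with earlier results of these data known. Named with values were members called in any comparison, the 6 highest and 6 lowest by moderated t in each comparison, and called or extreme members of the lists. Summed levels are log2 of the sum of a list's linear signals.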

Additional observations from a re-analysis of the deposited data

How the results depend on the processing

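With 3 arrays a group and no detection calls, small differences and those of dim probe sets were not resolved. The count of Hox genes called lower against wild type was 8 for ob/ob vehicle and 10 for VE, and 0 Hox genes were called higher in any setting. With 1 array left out it ranged from 5 (without ob/ob vehicle array 2) to 10 for ob/ob vehicle and from 6 (without VE array 3) to 11 for VE. No such count is given for the fit without wild type arrays 1 and 2, whose p-values rest on the smaller spread of the ob/ob arrays. Leaving out the dimmest 30% of clusters removed Hoxb9 and Hoxd9, which left 6 for ob/ob vehicle. For VE it also removed Hoxd10 and added Hoxb2, which left 8. In the remaining settings it was 8 to 12 and 8 to 13. Array weights ended the call of Hoxb3 for ob/ob vehicle (limma adjusted p = 0.0502) and of Hoxd9 for VE (0.0525), and added Hoxa10 for ob/ob vehicle. For VE, Hoxa10 and Hoxd9 lost their call with only those groups fitted and after quantile normalization, and Hoxb1 gained one with a trended or robust prior. Of the list genes, Ezh1, Kdm6b, Evx2, Lnpk, Meis1 (VE) and Rara (ob/ob vehicle) lost their call in 1 or more of these settings. With the replicate number as a block, which did not pair the arrays, 8 and 11 Hox genes were lower, Hoxb1 gained a call for VE, and Evx2 (0.0621), Ezh1 (0.0725) and Kdm6b (0.0594) lost theirs.

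Clusters called between ob/ob vehicle and wild type numbered 2754, with 1814 when only those groups were fitted, 5555 at the submitters' threshold and 1641 to 3545 with 1 array left out. Between VE and wild type they numbered 3920, with 6630 at the submitters' threshold and 2314 to 4706 with 1 array left out. Between VE and ob/ob vehicle they numbered 5, with 19 when only those groups were fitted, 0 with the replicate block, 12 with a robust prior, 41 with array weights, 1 after quantile normalization, 893 at the submitters' threshold, 17 at an adjusted p under 0.1, 19 without wild type arrays 1 and 2, and 0 to 21 with 1 array left out.

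Signs changed only for differences that were not called. Among all 33 Hox genes, 35 of 611 refits changed sign for ob/ob vehicle against wild type, 48 of 611 for VE against ob/ob vehicle and 21 of 611 for VE against wild type, and 0 of these were called before or after. For ob/ob vehicle against wild type, Hoxa4 became 0.10 after quantile normalization and 0.067 after median centring, and Hoxc6 became −0.14 after quantile normalization. Without wild type arrays 1 and 2, Hoxc6 was −0.84, Hoxc8 −0.21, Hoxc9 0.053, Hoxc10 0.63 and Hoxd11 0.25. With 1 array left out, Hoxa4 ranged from −0.29 to 0.28, Hoxb13 from −0.21 to 0.01, Hoxc6 from −0.25 to 0.62, Hoxc9 from −0.55 to 0.10, Hoxc10 from −0.67 to 0.17 and Hoxd11 from −2.72 to 0.12. The cause of these was not tested beyond the arrays removed.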
